A study of Mus musculus with 24 samples.

Results

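The antioxidant response genes of the transcription factor Nfe2l2 (Nrf2) were followed in 12 mouse gliomas driven by PDGFB. The group holds 10 of the 55938 genes of the deposited table: the factor Nfe2l2, its sensor Keap1, and 8 target genes, Nqo1, Hmox1, Gclc, Gclm, Txnrd1, Srxn1, Slc7a11 and Osgin1. It was chosen by name, and because Nfe2l2 had already been called higher when glioma cells of the late stage were set against the early stage in the same libraries. The comparison of late with asymptomatic glioma cells was also known when the group was proposed, and in those earlier results Nfe2l2 had been called in it too. The late against early comparison is therefore given as a description, and so are the others that set late or early glioma libraries against another stage. Where genes called in them are counted, the count stands beside the share over all genes and supports nothing. All 10 genes were found in the table, under 1 symbol each.

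Bulk RNA sequencing had been done on sorted cells of each brain. Tumours were raised by transferring PDGFB, a growth factor for oligodendrocyte precursor cells (OPC), into the telencephalic ventricles of embryos in utero. Every animal carried a PDGFB glioma, so brain without a tumour is not among the groups. The labels pair 1 library of fluorescent glioma cells with 1 of non-fluorescent surrounding cells for each tumour, which gives 24 libraries in 6 groups of 4. Animals without symptoms carried tumours 3228A, 3228B, 3228D and 3229B, collected on day 33 or 34 after gene transfer. Of the animals with symptoms, those of the early group (3108C, 3108D, 3109D, 3145A) were collected on days 35 to 50. Those of the late group (3054A, 3054B, 3054C, 3057E) were collected on days 100 to 175. Early and late follow the letters that end the labels, and stage, day and code prefix cannot be told apart. By the labels, red fluorescence marked the glioma cells of 3057E and green fluorescence those of 11 tumours. Strain, sex and age of the animals are not given in the sources used here, nor whether tumours of 1 prefix were littermates, so p-values measure the spread between these tumours.

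Nfe2l2 is a basic leucine zipper factor that Keap1 holds for degradation through the Cul3 ubiquitin ligase. When electrophiles or oxidants modify Keap1, Nfe2l2 accumulates, pairs with small Maf proteins and binds antioxidant response elements near genes of glutathione and thioredoxin metabolism. Much of this control acts on the Nfe2l2 protein, which transcript counts do not measure.

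The promoter sequences below are shown because 4 of them hold the core antioxidant response element and 3 the related AP-1 type element. Promoter windows from RefSeq on GRCm38.p6, 250 bases before to 50 after a start site, were matched for 8 of the 10 genes, with 10 windows in all. The core element was searched as TGACNNNGC and the AP-1 type element as TGANTCA, both on either strand, and no match of one overlapped a match of the other. The core was found in 4 of the 10 windows, and in 12.4% of all 32851 windows. The AP-1 type element was found in 2 of the 10 windows, Srxn1 and Osgin1, and in 7.81% of all windows. Each line gives 10 bases on either side of a match, 5′ to 3′ on the strand of the gene, with the match in capitals. The first line is the match of Nfe2l2 itself, the next 3 are core matches that read on the opposite strand, and the last 3 are AP-1 type matches.
Nfe2l2, 240 to 232 bases before the start, chr2:75704895-75704903: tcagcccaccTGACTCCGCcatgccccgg
Gclm, 134 to 126 bases before the start, chr3:122245423-122245431: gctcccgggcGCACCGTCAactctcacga
Txnrd1, 92 to 84 bases before the second of its 3 starts, chr10:82859114-82859122: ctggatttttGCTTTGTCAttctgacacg
Srxn1, bases 28 to 36 after the start, chr2:152105552-152105560: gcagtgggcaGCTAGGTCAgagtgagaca
Srxn1, 102 to 96 bases before the start, chr2:152105422-152105428: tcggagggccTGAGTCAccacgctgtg
Srxn1, 45 to 39 bases before the start, chr2:152105479-152105485: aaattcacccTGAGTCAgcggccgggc
Osgin1, 97 to 91 bases before the start, chr8:119437050-119437056: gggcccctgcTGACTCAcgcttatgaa
A match describes letters in the window and no more, and binding was not measured. The remaining matched windows, of Keap1, Nqo1 and Slc7a11 and at the other two starts of Txnrd1, held neither element.

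Levels are given as library-scaled counts (CPM, with TMM scaling), and as RPKM (CPM per kilobase of annotated exon) where genes are compared with each other. Library totals ranged from 9.08e+06 to 1.55e+07. The 10 microglia and macrophage markers summed to 67.5 to 611 CPM in 11 glioma libraries, to 2048 CPM in glioma 3057E and to 2595 to 15687 CPM in surrounding cells, and none of them was at 0 in any library. OPC markers summed to 5590 to 9043 CPM in glioma and to 367 to 6172 CPM in surrounding cells, so the surrounding libraries also held OPC transcripts. All 5 OPC markers were called higher in glioma cells, beside 22% of all genes. All 10 microglia and macrophage, 5 endothelial, 5 pericyte and fibroblast and 5 mature oligodendrocyte markers were called lower, beside 24.2% of all genes. In glioma cells alone, only 3 of the 5 endothelial and 4 of the 5 pericyte and fibroblast markers passed the count filter. The others passed it only through the surrounding libraries, where they are high, so their calls were favoured by the filter. In a bulk library, fewer cells of a type and less RNA per cell cannot be told apart, and this holds for every value below. In tumours 3108D and 3109D the sex-linked genes Xist and Ddx3y were crossed between the populations, which touches pairs but not groups. Deposited values of Keap1, Gclm and Slc7a11 were not whole numbers, so some of their reads had been shared with other genes by estimate.

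In glioma cells, the highest of the 10 per length was Hmox1, at 83.0 ± 53.6 RPKM (SD, n = 12 libraries), followed by Txnrd1 at 27.2 ± 5.69. Gclm (13.1 ± 1.93), Srxn1 (11.6 ± 2.74) and Gclc (11.5 ± 1.37) came next and did not differ from each other beyond their spread. Keap1 (6.28 ± 0.93) and Nfe2l2 (4.07 ± 2.74 RPKM) overlapped, and Nqo1 (1.44 ± 0.94), Slc7a11 (0.833 ± 0.313) and Osgin1 (0.291 ± 0.461) were the lowest. In surrounding cells the mean over all stages was 31.1 ± 19.2 RPKM for Nfe2l2 and 283 ± 449 RPKM for Hmox1. The order of Nfe2l2 and Txnrd1 differed by stage, at 21.8 to 28.1 against 11.02 to 21.1 RPKM in asymptomatic, 14.5 to 20.5 against 16.3 to 22.8 RPKM in early and 21.1 to 79.7 against 17.3 to 22.3 RPKM in late surrounding cells (4 libraries each). The other 8 in surrounding cells ran from Txnrd1 at 18.5 ± 3.36 RPKM to Nqo1 at 1.64 ± 1.10, with Gclc (11.9 ± 1.44), Gclm (10.6 ± 2.39) and Srxn1 (10.1 ± 3.49) again within their spread of each other.

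**Figure D1:**
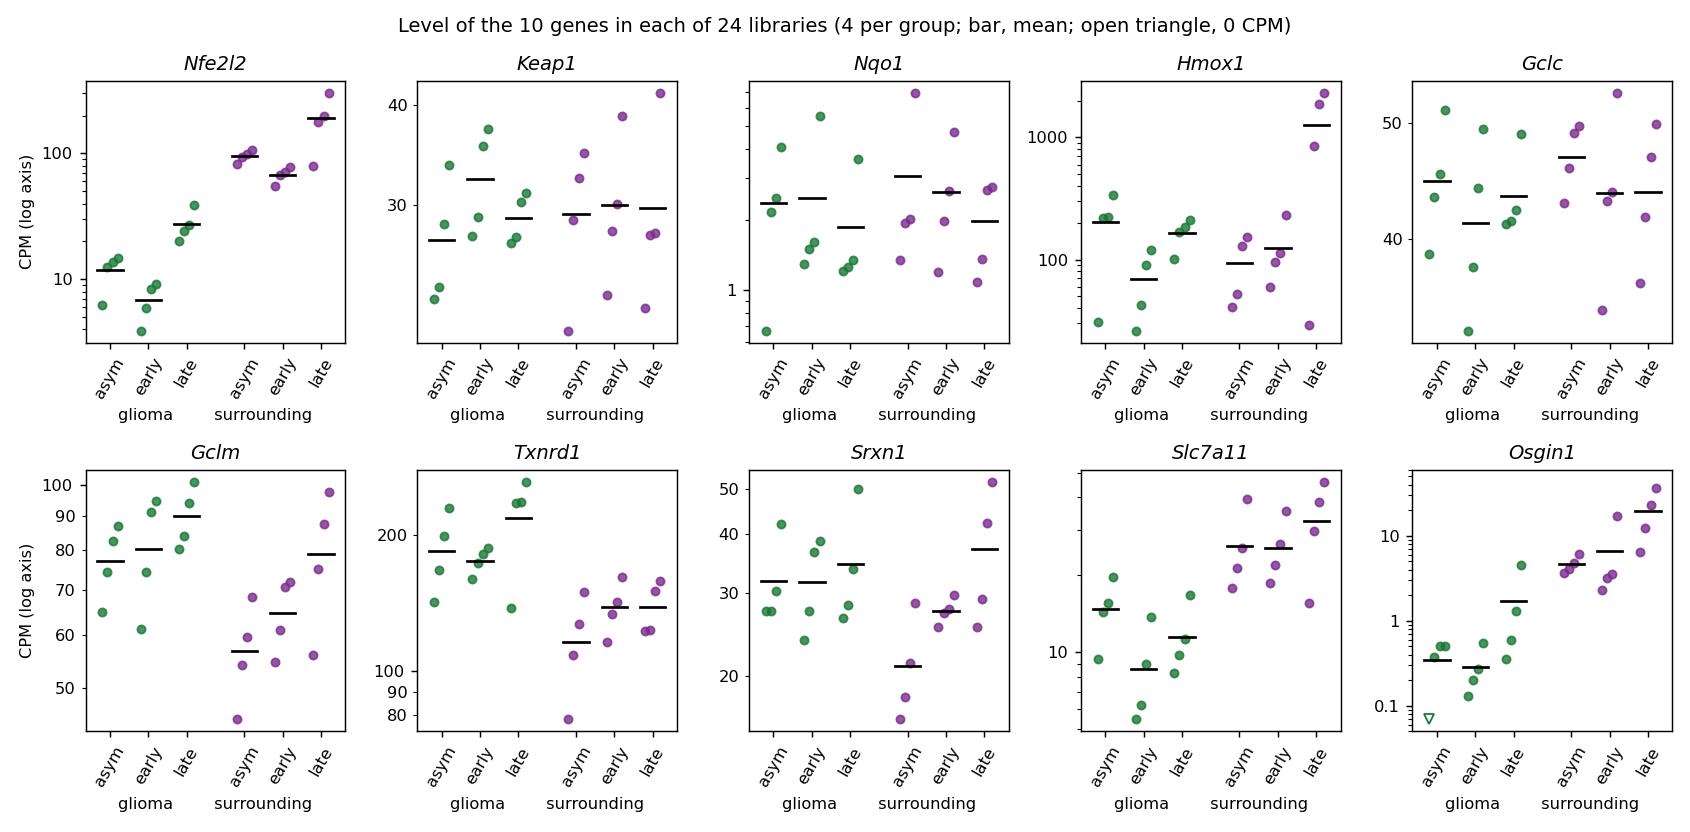
CPM of each of the 10 genes in 24 libraries on a log axis, 1 panel per gene with its own axis. Green points are glioma libraries and purple points surrounding libraries at the asymptomatic, early and late symptomatic stage, 4 per group, bars are means, and the open triangle is Osgin1 at 0 CPM in glioma 3228D. All surrounding libraries of Nfe2l2 lie above all glioma libraries, and late surrounding Hmox1 lies at 854 to 2315 CPM in 3 libraries and at 29.1 CPM in 3057E.

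Glioma and surrounding cells were compared to ask where the pathway is expressed. The transcription factor Nfe2l2, Osgin1 and the cystine transporter Slc7a11 were lower in glioma cells, and the thioredoxin reductase Txnrd1 and the glutathione synthesis subunit Gclm were higher. The comparison took the mean of 3 glioma groups minus the mean of 3 surrounding groups, with edgeR's quasi-likelihood test and Benjamini-Hochberg adjustment over 18810 genes. Of the 10 genes 5 were called at adjusted p under 0.05, beside 46.3% of all genes tested. The 2 higher genes stand beside 22% of all genes called higher, and the 3 lower genes beside 24.2% called lower. Osgin1, among the 3 lower, passed the count filter only through the surrounding libraries, where it is high, so its call was favoured by the filter. With Osgin1 counted, the share of called members is near the background. The median log2 fold change of the 10 was -0.12, against 0.06 over all genes.

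Nfe2l2 (ENSMUSG00000015839, chromosome 2, 75675513 to 75704641, minus strand, GRCm38) separated the populations without overlap. Of all genes tested, 5.58% were lower in every glioma library than in every surrounding one. In glioma cells it stood at 12.6, 14.8, 6.29 and 13.9 CPM in asymptomatic 3228A, 3228B, 3228D and 3229B. It stood at 3.92, 5.96, 9.15 and 8.42 CPM in the early tumours 3108C, 3108D, 3109D and 3145A, and at 24.3, 27.1, 20.2 and 38.9 CPM in the late tumours 3054A, 3054B, 3054C and 3057E. The 4 late glioma libraries were the highest of the 12. The surrounding libraries of the same tumours held 107, 99.8, 82.9 and 94.2 CPM at the asymptomatic stage and 67.3, 55.1, 70.7 and 78.0 CPM at the early stage. At the late stage they held 199, 178, 303 and 80.0 CPM. The lowest surrounding library, 3108D, was thus above the highest glioma library, 3057E. The log2 fold change was -3.03 ± 0.20 (SE, edgeR adjusted p = 4.76e-10), with lower glioma values in 12 of 12 pairs. Microglia and macrophage markers were also lower in every glioma library than in every surrounding one, and their part in the difference was not tested.

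Osgin1, an oxidative stress induced growth inhibitor, was close to its detection limit in glioma cells. It had 0 to 7 counts in each of the 8 asymptomatic and early glioma libraries, and 7, 4, 17 and 55 counts in late glioma 3054A, 3054B, 3054C and 3057E. In surrounding cells it stood at 4.10, 6.11, 3.67 and 4.78 CPM at the asymptomatic stage and at 17.2, 2.28, 3.52 and 3.20 CPM at the early stage. The late surrounding libraries held 12.2, 36.4, 22.8 and 6.39 CPM. Of the glioma libraries, 3057E alone, with 4.55 CPM, reached the range of the surrounding cells. The log2 fold change was -3.89 ± 0.49, with the glioma value lower in 12 of 12 pairs. Osgin1 passed the count filter only through the surrounding libraries, where it is high, so its call among the 5 was favoured by the filter and its fold change is given as a description.

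Slc7a11, which imports cystine for glutathione synthesis, held 5.47 to 19.6 CPM in glioma cells with a median of 10.5, and 15.5 to 46.1 CPM in surrounding cells with a median of 25.9. The ranges overlapped. The glioma value was lower in 11 of 12 pairs, and the exception was 3057E, with 16.6 CPM in glioma and 15.5 CPM in surrounding cells. Its log2 fold change over all stages was -1.29 ± 0.21 (edgeR adjusted p = 2.39e-05). By stage it was -1.56 ± 0.36 at the early stage (adjusted p = 0.00381), -1.50 ± 0.36 at the late stage (0.00272) and -0.82 ± 0.35 at the asymptomatic stage, where it was not called (0.136).

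Txnrd1, which reduces thioredoxin, was higher in glioma cells in 12 of 12 pairs. It held 138 to 263 CPM in glioma cells, with a median of 185, and 78.1 to 162 CPM in surrounding cells, with a median of 130.5. The lowest glioma library was again 3057E, at 138 CPM against 123 CPM in its surrounding cells. The log2 fold change was 0.56 ± 0.12 (edgeR adjusted p = 0.000756). It was called at the asymptomatic stage alone (0.67 ± 0.21, 0.0353) and the late stage alone (0.66 ± 0.21, 0.0195), and not at the early stage alone (0.34 ± 0.21, 0.337).

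The glutathione pair and the other targets differed less. Gclm, the modifier subunit of glutamate-cysteine ligase, held 61.2 to 101 CPM in glioma and 45.0 to 97.7 CPM in surrounding cells and was higher in glioma in 10 of 12 pairs. Its log2 fold change of 0.31 ± 0.11 was called (edgeR adjusted p = 0.0192), but the call was lost in 6 of the 12 fits that left 1 tumour out, those without 3057E, 3145A, 3228A, 3228B, 3228D or 3229B, with log2 fold changes of 0.20 to 0.37 over the 12. Gclc, the catalytic subunit, held 33.5 to 51.3 CPM in glioma and 34.9 to 53.0 CPM in surrounding cells, and its difference lay within 1 SE of 0. Differences of Keap1, the sensor, and of the quinone reductase Nqo1 also lay within 1 SE of 0. Keap1 held 22.9 to 37.3 CPM in glioma and 20.9 to 41.4 CPM in surrounding cells, while Nqo1 stayed at 0.672 to 5.53 and 1.08 to 6.95 CPM, with 8 to 84 counts per library. Srxn1, which repairs overoxidised peroxiredoxins, had a log2 fold change of 0.23 ± 0.14 and was not called (edgeR adjusted p = 0.195).

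Hmox1 (ENSMUSG00000005413, chromosome 8, 75093621 to 75100589, plus strand) is the heme oxygenase that releases iron from heme. Its estimates of the population difference had both signs over the stages, and only the late one, lower in glioma cells, was called. In asymptomatic tumours glioma cells held 222, 335, 30.7 and 219 CPM against 130.1, 152, 40.4 and 52.1 CPM in surrounding cells. In early tumours they held 42.6, 26.1, 119 and 90.9 CPM against 230.3, 59.9, 95.9 and 114 CPM. In late tumours they held 100.5, 184, 167 and 209 CPM against 854, 2315, 1878 and 29.1 CPM. The glioma value was higher in 3 of 4 asymptomatic pairs and lower in 3 of 4 late pairs, with 3057E the exception. Over all stages the log2 fold change was -0.89 ± 0.46 and not called (edgeR adjusted p = 0.115). In the 12 fits that left 1 tumour out it was called in 1, the fit without 3057E (-1.13 ± 0.36, 0.013), beside 51% of all genes. At the late stage alone it was -2.94 ± 0.84 and called (0.00964), and at the asymptomatic stage alone 1.10 ± 0.79 (0.389). The difference between those stage effects, added after the values were seen, was -4.05 ± 1.15 on the log2 scale, not called after adjustment over 18810 genes (edgeR adjusted p = 0.5).

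**Figure D2:**
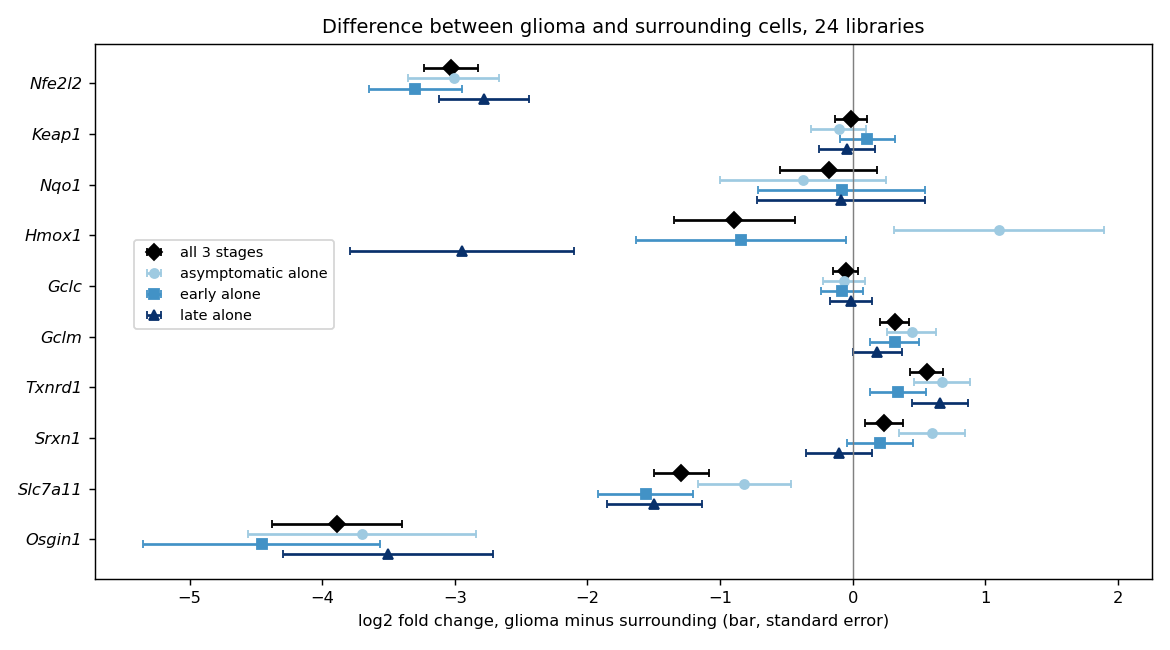
Log2 fold change of each gene between glioma and surrounding cells over all 3 stages (black diamonds) and at each stage alone (blue symbols), with standard errors. Nfe2l2 and Osgin1 lie below -2 in all 4 estimates, Txnrd1 lies above 0 in all 4, and Hmox1 runs from 1.10 at the asymptomatic to -2.94 at the late stage.

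Late and early symptomatic glioma cells are the comparison from which the group was drawn. Of 9 genes fitted, Nfe2l2 was called, beside 0.273% of all 16494 genes tested. As the group was chosen by that call, nothing is read from it. Nfe2l2 had a log2 fold change of 2.01 ± 0.34 (SE, n = 4 per group), from a mean of 6.86 CPM to 27.6 CPM. Hmox1 had 1.25 ± 0.61, Slc7a11 0.42 ± 0.34, Txnrd1 0.31 ± 0.20 and Gclm 0.17 ± 0.17, with overlapping groups for these 4. Gclc, Nqo1, Srxn1 and Keap1 lay within 1 SE of 0, and Osgin1 fell below the count filter in glioma cells. The 8 targets and Keap1 overlapped between the stages. In the fit that left out 3057E Nfe2l2 had 1.77 ± 0.32, and Txnrd1 0.46 ± 0.16.

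Between late and asymptomatic glioma cells 0 of the 9 genes were called, beside 0.158% of all genes. Nfe2l2 had a log2 fold change of 1.23 ± 0.33 and its groups did not overlap, the asymptomatic libraries reaching 14.8 CPM and the late ones starting at 20.2 CPM. Of all genes, 3.52% were higher in every late than in every asymptomatic library. Values of Slc7a11 were -0.34 ± 0.33, of Txnrd1 0.25 ± 0.20 and of Gclm 0.23 ± 0.17, and the other 5 fitted lay within 1 SE of 0. Both descriptions share the late glioma libraries. Both comparisons were known when the group was proposed, with Nfe2l2 called in each in those earlier results, so nothing is read from either. Microglia and macrophage markers summed to 67.5, 83.0 and 104 CPM in late glioma 3054A, 3054B and 3054C. They summed to 172 to 611 CPM in asymptomatic and to 77.9 to 171 CPM in early glioma. In late glioma 3054A, 3054B and 3054C Nfe2l2 stood at 20.2 to 27.1 CPM. Their marker sums lay below the asymptomatic ones and overlapped the early ones. The remaining late library, 3057E, held 2048 CPM of these markers together with the highest Nfe2l2 level of the glioma libraries. The part of microglia and macrophages in the Nfe2l2 values of glioma libraries was not tested. The 5 astrocyte markers summed to 217 to 377 CPM in late, 263 to 580 CPM in early and 439 to 539 CPM in asymptomatic glioma, none of them at 0. The late and asymptomatic astrocyte sums did not overlap. The 5 endothelial markers summed to 11.3, 119, 70.5 and 2.57 CPM in late glioma 3054A, 3054B, 3054C and 3057E. They summed to 1.25 to 5.61 CPM in early and to 3.01 to 35.4 CPM in asymptomatic glioma. Among them Flt1 reached 116 CPM in glioma cells and each of the others at most 7.44 CPM, so Flt1 made up most of the highest sum. The part of astrocytes and endothelial cells was not tested.

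**Figure D3:**
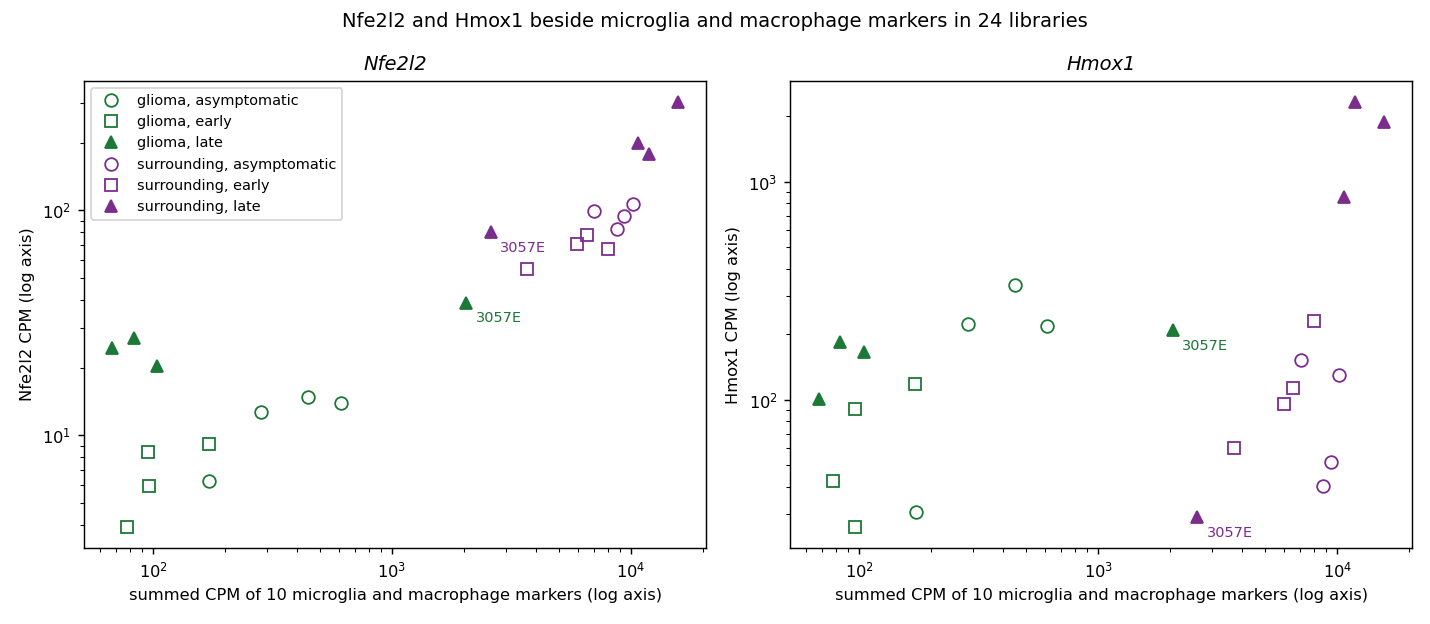
Nfe2l2 (left) and Hmox1 (right) CPM in 24 libraries against the summed CPM of 10 microglia and macrophage markers, both axes log. Green symbols are glioma and purple symbols surrounding libraries, filled triangles are late, and both libraries of 3057E are named. The late glioma libraries 3054A, 3054B and 3054C stand at 20.2 to 27.1 CPM of Nfe2l2 with 67.5 to 104 CPM of markers, and late surrounding 3057E stands lowest for Hmox1 among surrounding libraries, at 29.1 CPM.

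Early and asymptomatic glioma cells, a comparison without the late libraries, gave 0 called of 9 genes, beside 0% of all genes. At an unadjusted p under 0.05 there were 810 of the 16494 genes, 3 of them in the group. These were Hmox1 (-1.53 ± 0.61), Nfe2l2 (-0.78 ± 0.33) and Slc7a11 (-0.76 ± 0.34), each with an edgeR adjusted p = 0.936. All 3 were lower on average at the early stage with overlapping groups. DESeq2 called 0 genes in this comparison and limma voom with sample weights 1, none of them a member. Keap1 had 0.26 ± 0.17, and the other 5 lay within 1 SE of 0.

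The stage comparison was repeated in the surrounding cells, whose libraries had not served to choose the genes but come from the same 12 tumours, so they are not independent of the glioma libraries. Nfe2l2 was higher in late than in early surrounding cells, and Hmox1 and Osgin1 had larger values that did not pass the test. Of 10 genes Nfe2l2 was called, beside 1.48% of 17616 genes. It stood at 80.0 to 303 CPM in late and at 55.1 to 78.0 CPM in early surrounding cells, without overlap, 3057E being the lowest late library by a narrow margin. Of all genes, 5.05% were higher in every late than in every early library. The log2 fold change of Nfe2l2 was 1.45 ± 0.31 (SE, edgeR adjusted p = 0.0415, n = 4 per group). In the 12 fits that left 1 tumour out it ranged from 1.14 to 1.71 and was called in 1 of them, the fit without 3057E (1.71 ± 0.22, adjusted p = 0.00372). Without any of the other 11 tumours the call was lost, with adjusted p up to 0.155. Microglia and macrophage markers summed to 10670, 11865, 15687 and 2595 CPM in late surrounding 3054A, 3054B, 3054C and 3057E and to 3682 to 8016 CPM in early surrounding cells. Of the 10 markers 9 had positive log2 fold changes, with a median of 0.87, and 0 were called. Nfe2l2 thus stood highest in the 3 libraries where those markers were highest, and their part was not tested.

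Hmox1 in late surrounding cells had 2 levels. It stood at 854, 2315 and 1878 CPM in 3054A, 3054B and 3054C and at 29.1 CPM in 3057E, below all early libraries, which held 59.9 to 230.3 CPM. The log2 fold change was 3.30 ± 0.93 and not called (edgeR adjusted p = 0.109). In the 12 fits that left 1 tumour out it was called in 1, the fit without 3057E (3.71 ± 0.57, 0.00385), beside 18.9% of all genes. Erythrocyte markers, the hemoglobin genes and Alas2, summed to 456, 4068, 1511 and 215 CPM in the same 4 late libraries and to 12.3 to 147 CPM in the early ones. They reached 2739 CPM in asymptomatic surrounding 3229B, where Hmox1 stood at 52.1 CPM. Microglia and macrophage markers summed to 10670, 11865, 15687 and 2595 CPM in the same 4 late libraries and to 3682 to 8016 CPM in the early ones. In asymptomatic surrounding cells they summed to 7019 to 10140 CPM, where Hmox1 stood at 40.4 to 152 CPM. The part of either marker set in the Hmox1 values was not tested.

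Osgin1 in surrounding cells had a late minus early log2 fold change of 1.53 ± 0.65 that was not called (edgeR adjusted p = 0.271). The early library 3108C stood at 17.2 CPM and the other 3 at 2.28 to 3.52 CPM. In the 12 fits that left 1 tumour out the log2 fold change ranged from 1.05 to 2.65, with edgeR adjusted p up to 0.597. Osgin1 was called in 1 of them, the fit without 3108C (2.65 ± 0.53, 0.0431), beside 251 of 18135 genes. Srxn1 (0.39 ± 0.25) and Gclm (0.26 ± 0.21) were not called, and Keap1, Nqo1, Gclc, Txnrd1 and Slc7a11 lay within 1 SE of 0. Tumours 3054A, 3054B and 3054C, the late tumours left in a fit without 3057E, share a prefix that no other tumour has.

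Against asymptomatic surrounding cells, late surrounding cells gave 0 called of 10 genes, beside 0% of all genes. At an unadjusted p under 0.05 there were 2822 of 17616 genes and 5 of the group, all higher in late cells. Hmox1 had a log2 fold change of 3.75 ± 0.95 (edgeR adjusted p = 0.142) and Osgin1 2.04 ± 0.66 (0.179). Osgin1 did not overlap between the groups, at 6.39 to 36.4 CPM against 3.67 to 6.11 CPM, and 3.17% of all genes were likewise higher without overlap. Nfe2l2 had 0.98 ± 0.31 and Srxn1 0.81 ± 0.25, both with adjusted p = 0.17, and Gclm had 0.47 ± 0.21 (0.3). Txnrd1 had 0.26 ± 0.21 and Nqo1 -0.65 ± 0.61, and Keap1, Gclc and Slc7a11 lay within 1 SE of 0. Without 3057E Hmox1 (4.15 ± 0.58), Osgin1 (2.33 ± 0.63), Nfe2l2 (1.23 ± 0.21) and Srxn1 (0.95 ± 0.25) were called, with adjusted p of 0.00732 to 0.0299, beside 16.4% of all genes. DESeq2 called 965 genes with all libraries, among them Hmox1 and Osgin1, and limma voom with sample weights 4106, among them 6 of the group. Early against asymptomatic surrounding cells gave 0 called of the 10, beside 0% of all genes, with 645 genes and 0 members at an unadjusted p under 0.05. Nfe2l2 there had -0.47 ± 0.31, with every early library below every asymptomatic one, as for 2.32% of all genes. Srxn1 had 0.42 ± 0.25, Txnrd1 0.29 ± 0.21 and Gclm 0.21 ± 0.21, and the other 6 lay within 1 SE of 0. DESeq2 called 12 genes and limma voom 0, with no member among them.

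**Figure D4:**
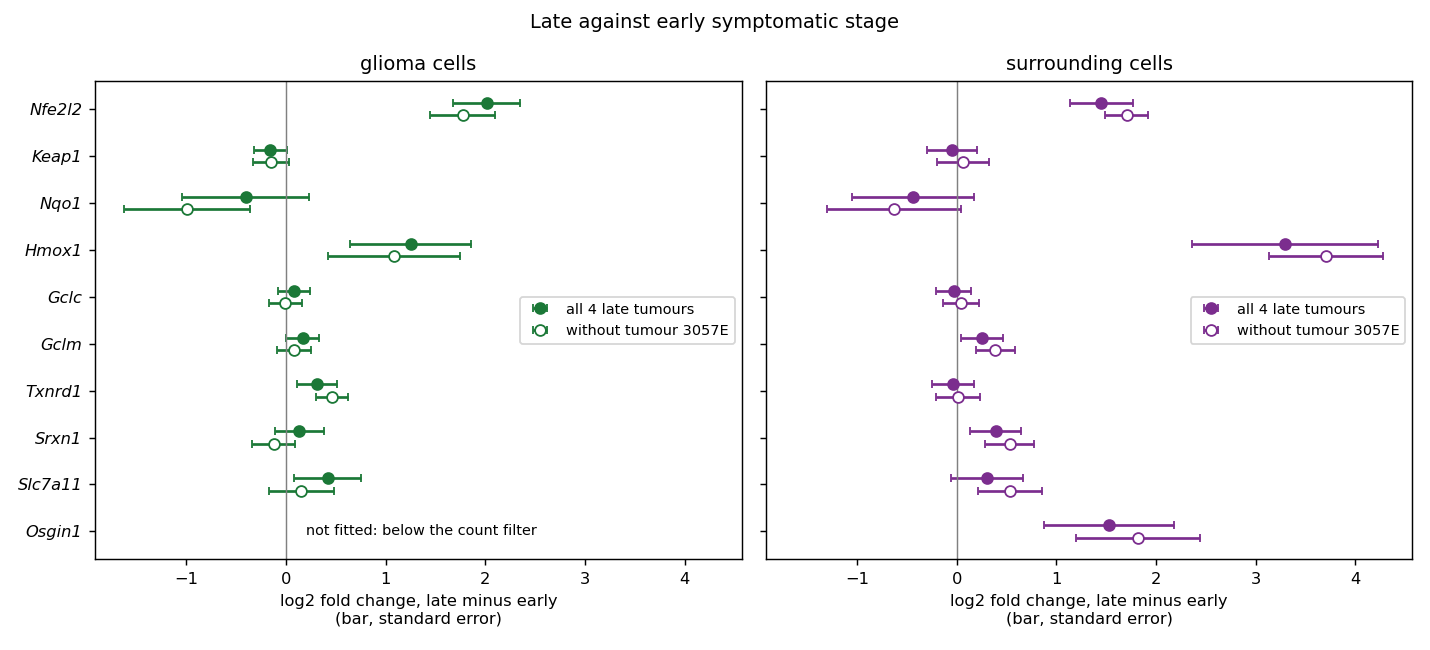
Log2 fold change of each gene between late and early symptomatic stage in glioma cells (left) and surrounding cells (right), with standard errors. Filled points use all 4 late tumours and open points leave out tumour 3057E, and Osgin1 was not fitted in glioma cells. Nfe2l2 lies at 2.01 and 1.77 in glioma and at 1.45 and 1.71 in surrounding cells, while Keap1 and Gclc lie near 0 in all 4 estimates.

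The late minus early change was set side by side in the populations. For Nfe2l2 it was 2.01 ± 0.34 in glioma and 1.45 ± 0.31 in surrounding cells, and for Hmox1 1.25 ± 0.61 and 3.30 ± 0.93. The difference of the 2 changes was 0.52 ± 0.46 for Nfe2l2, -2.10 ± 1.12 for Hmox1 and 0.31 ± 0.30 for Txnrd1, and within 1 SE of 0 for the other 7. It was called for 0 of the 10 genes, beside 0% of 18810 genes (1167 at an unadjusted p under 0.05), and it rests in part on the comparison from which the group was drawn. Without 3057E the difference for Nfe2l2 was -0.022 ± 0.42.

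Other genes of the pathway were read from lists chosen with earlier results of these data known. Of 23 further targets 22 were tested, and 4 were higher and 11 lower in glioma than in surrounding cells, with a median log2 fold change of -0.36. Beside these and the next 3 lists stand the 22% of all genes called higher and the 24.2% called lower. The 4 with the smallest p were Ugdh, which makes UDP-glucuronate (1.17 ± 0.14), the ferritin heavy chain Fth1 (-2.37 ± 0.32), malic enzyme Me1 (1.11 ± 0.17) and the glutathione transferase Gsta4 (-2.19 ± 0.34). Of 14 regulators and partners 5 were higher and 6 lower. Lower were the small Maf proteins Mafk (-1.83 ± 0.31) and Mafg (-0.69 ± 0.14) and the related factor Nfe2l3 (-1.98 ± 0.36), and higher was the kinase Gsk3b (0.69 ± 0.12). Of 18 other redox genes 4 were higher and 6 lower, led by the peroxidases Gpx1 (-1.46 ± 0.20), Gpx7 (1.07 ± 0.16), Gpx8 (-2.39 ± 0.39) and Prdx5 (-1.04 ± 0.19). Of 14 genes of the Atf4 stress response, which also controls Slc7a11, 2 were higher and 2 lower: asparagine synthetase Asns (1.24 ± 0.19) and Shmt2 (0.35 ± 0.14), and Nupr1 (-3.38 ± 0.42) and Ddit3 (-0.48 ± 0.17).

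In late against early surrounding cells glutathione reductase, Gsr, was the 1 gene called in these 4 lists, beside 1.48% of all genes. It had a log2 fold change of 1.76 ± 0.35 (edgeR adjusted p = 0.0304), from 30.1 CPM to 105 CPM. Its groups did not overlap, and 5.05% of all genes were likewise higher without overlap. In a count added after the data were seen, the fit without 3057E called 10 of the 22 further targets higher and 2 lower, beside 18.9% of all genes. The 12 were Gsr, Txn1, Prdx1, G6pdx, Pgd, Taldo1, Tkt, Me1, Blvrb, Ftl1, Ugdh and Htatip2. In late against early glioma cells 0 genes of the 4 lists were called. The further targets with the smallest p there were the ferritin light chain Ftl1 (1.53 ± 0.31) and Htatip2 (1.83 ± 0.41), given without a test. Neither overlapped between the groups, and 3.16% of all genes were likewise higher without overlap. The glioma fit without 3057E called 3 of the 22, Ftl1, Ugdh and Htatip2, beside 17.2% of all genes, and nothing is read from that count.

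The genes most like Nfe2l2 were taken as those with the smallest root mean square difference of centred log2 CPM, among genes whose log2 CPM averaged 3 or more. Over the 12 glioma libraries and 10538 genes they included Ftl1 (0.371 log2 units), the predicted gene Gm47428 (0.373), Plin2 (0.388) and Ftl1-ps1 (0.403), beside 0.873 for Nfe2l2's own spread. Ftl1 and its pseudogene Ftl1-ps1 can share reads and are uncertain as separate genes. Mean levels of Ftl1 in glioma cells were 474 CPM at the asymptomatic, 294 CPM at the early and 847 CPM at the late stage. Over all 24 libraries and 10918 genes they were Tpd52 (0.415), Ehd4 (0.425), Tep1 (0.442), Itpripl2 (0.456) and AU020206 (0.461), beside an own spread of 1.66. These libraries share the population difference, and the lists are descriptions.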

How the data were processed

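The deposited table held expected counts per gene for 24 libraries, deposited by the authors. The submitters' processing notes name RSEM 1.3.1, STAR 2.7.5c and GRCm38 (mm10). Per the labels' protocols, libraries came from polyA RNA of sorted cells with the CORALL total RNA kit. Annotation release, strand setting and use of molecular identifiers are not given in the sources used here, so overlapping and antisense genes are uncertain. Between 13.2% and 16.5% of values per library were not whole, and rounding them shifted a library total by at most 95.2 counts. No 2 libraries of a group were copies (lowest chi-square per degree of freedom 19.8).

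Rounded counts went into edgeR 4.0.16 under R 4.3.3 (TMM, filterByExpr with a minimum of 10, robust quasi-likelihood F test, group means only). Each stage comparison used the 12 libraries of its population, and the population comparison used 24, with Benjamini-Hochberg adjustment over all genes tested and calls at adjusted p under 0.05. Osgin1 did not pass the filter in glioma cells, so 9 of 10 genes were fitted there and 10 elsewhere. Log2 fold changes closer to 0 than 1 SE are described only as such. RPKM used the exon union of GENCODE M21 gene models on GRCm38. The fits were tested on simulated data. Alternatives were DESeq2 1.42.0, limma 3.58.1 voom with sample weights, other scaling and filters, no robust spread, all libraries in 1 fit, each tumour left out, single stages and a tumour block. Libraries were paired by the animal code that the labels give. Deviations of paired libraries correlated at 0.0247 (3109D) to 0.482 (3108C), and 9 of the 12 correlated best with their own code.

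The members and gene lists were chosen with earlier results of these data known. Every member is covered in each comparison, by its value or as within 1 SE of 0, with up to 4 called genes of each further list by smallest p (up to 2 where none was called). One gene that the likeness rule selected is not reported here.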

Additional observations from a re-analysis of the deposited data

Results flagged for a closer look

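In 60 combinations of gene and group, 5 values stood apart from the other 3 of their group by Dixon's criterion, which chance meets in about 1 of 20 groups. Glioma 3057E gave more than 1 of them. Nqo1 stood high at 3.64 CPM in late glioma 3057E (others 1.21 to 1.35 CPM), at 5.53 CPM in early glioma 3145A (others 1.29 to 1.60 CPM) and at 6.95 CPM in asymptomatic surrounding 3229B (others 1.35 to 2.01 CPM). Gclc stood at 49.0 CPM in late glioma 3057E, where 3054A, 3054B and 3054C held 41.1 to 42.3 CPM. Osgin1 stood at 17.2 CPM in early surrounding 3108C, against 2.28 to 3.52 CPM. Of these libraries, glioma 3057E also held 2048 CPM of microglia and macrophage markers, and surrounding 3229B held 24297 CPM of mature oligodendrocyte markers, against 2658 to 5177 CPM in the other asymptomatic surrounding libraries. The part of these cells in the values was not tested.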

How the results depend on the processing

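The lower Nfe2l2 level in glioma cells was called in all 25 alternative fits of that comparison, Slc7a11 in 24 and Txnrd1 in 23, each with the same direction, and Gclm in 10. The member count, which includes Osgin1 with its call favoured by the filter, was 5. With the tumour code as a replicate block it was again 5, with the same 5 genes and with all genes called rising from 8700 to 10228. It was also 5 with the surrounding libraries of 3108D and 3109D exchanged, and the block changed no other call. The count was 3 at the asymptomatic stage alone, 3 at the early stage alone, 5 at the late stage alone (with Hmox1, without Gclm), 3 with a fold of more than 2 and 6 with limma voom (with Hmox1). All genes called in these were 2592, 2536, 6638, 4206 and 10755 of 18810. Hmox1 had a log2 fold change of 1.10 at the asymptomatic stage alone and Srxn1 -0.10 at the late stage alone, opposite to their pooled values.

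Stage counts moved with the tool and with single tumours. In late against asymptomatic glioma DESeq2 called 1 member and limma voom 1 (599 and 2989 genes in all, against 26). In late against early glioma the count was 0 without 3108D and 3109D and 0 to 1 without single tumours (DESeq2 967 and limma voom 2613 genes in all, against 45). In late against early surrounding cells it was 2 with DESeq2, 4 with limma voom, 2 with all libraries in 1 fit, 0 without 3108D and 3109D and 0 to 2 without single tumours (1080, 5193, 433 and 0 genes in all, against 260). In late against asymptomatic surrounding cells it was 2, 6 and 1, and 0 to 4 without single tumours (965, 4106 and 226 genes in all, against 0). Gclm in late against early glioma was -0.047 without 3108D and 3109D. Leaving out single tumours, the difference between the late minus early changes of Nfe2l2 in the populations ranged from -0.022 (without 3057E) to 0.96, and Nqo1 in late against asymptomatic surrounding cells from -0.89 to 0.19 (without 3229B), against -0.65 with all. The cause was not tested. Values within 1 SE of 0 numbered 38 of 77, and 94 of their 777 alternative values had the other sign.

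Depth limits Osgin1 in glioma cells (0 to 55 counts per library) and Nqo1 (8 to 84). Stage comparisons have 4 tumours per group, stage and code prefix cannot be told apart, and 3057E differs from the other late tumours in both populations. Without it, the late tumours share 1 prefix.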
